A study of Mus musculus with 12 samples.

Results

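Expression of 10 genes of marrow vessels was followed in whole bone marrow of irradiated and nonirradiated young mice: Pecam1, Cdh5, Kdr, Flt4, Tek, Emcn, Stab2, Plvap, Eng and Esam. They were chosen by name as genes of endothelial cells, and each had exactly 1 row in the deposited table, so they are 10 of the 19938 genes measured. One of the 10, Emcn, differed between irradiated and nonirradiated marrow past the threshold (limma, adjusted p under 0.05) when both treatments were averaged. Of all genes, 6.10% passed in that comparison, and the call on Emcn was kept in 7 of the 12 fits that left out 1 array. None of the 10, and no other gene, differed past the threshold between mice given parathyroid hormone (PTH) and mice given vehicle.

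Blood vessels of the marrow are lined by endothelial cells, most of them in thin-walled sinusoids through which blood cells leave the marrow. These cells are held together by junction proteins, kept alive by vascular endothelial growth factor (VEGF) and by angiopoietins, and clear material from blood through scavenger receptors. Ionizing radiation is known to damage marrow sinusoids, and their regrowth accompanies the return of blood cell formation.

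The study measured expression on 12 whole-transcript arrays of marrow flushed from the long bones of B6 mice, with 3 arrays in each of 4 groups. The irradiated groups were 10 days old when they received a sub-lethal dose, split into 2 fractions of 310 cGy each, and the other groups were not irradiated. Vehicle or PTH was given on days 11 to 15 of age, 5 days in all, and the marrow was collected on day 16. PTH is a hormone of the parathyroid glands that builds bone when given intermittently, and the series asks whether changes in the marrow alter its action on bone. Whether each array is 1 mouse or a pool is not given by the labels, and p-values therefore cover no more than the spread between these samples, which may be technical.

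All values are log2 expression from 1 probe set per gene, so a level can be followed across arrays but not compared between genes. In a whole-marrow sample, fewer endothelial cells and less RNA per endothelial cell cannot be told apart. Transcripts of marrow cells were as the tissue label says: the neutrophil genes S100a8, S100a9 and Ngp and the red cell genes Alas2 and Slc4a1 lay above the array's upper quartile on 12 of 12 arrays. So did Pecam1, Cdh5, Emcn and Stab2, while Flt4 lay above the array median on 11 arrays and Esam on 6. The B-lineage genes Cd79a and Cd79b lay above the upper quartile on 6 and 10 of the 12 arrays. The ranges of nonirradiated vehicle replicate 3 and of irradiated PTH replicate 3 were narrower than the rest, with interquartile ranges of 2.86 and 2.88 against 3.13 to 3.25. Irradiated PTH replicate 3 also stood apart on the first principal component. By Xist and Kdm5d, 3 of 3 nonirradiated PTH arrays and 0 of 3 nonirradiated vehicle arrays had the female pattern, so sex and PTH cannot be told apart in nonirradiated mice. Each irradiated group held 1 such array, its replicate 1.

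Promoters of 6 of the 10 genes matched RefSeq's table for mouse assembly GRCm38.p6, and 3 are shown. They are those of Emcn, which was called, of Flt4, which had the largest difference in vehicle mice, and of Eng. Eng deviated from its group mean oppositely to Emcn on most arrays of the vehicle groups. Each promoter shown is the 250 bases before the start site, 5′ to 3′ on the strand of the gene, with matches to AGGAAG on either strand in capitals. AGGAAG is a longer form of the GGAA core bound by ETS factors, which are known regulators of endothelial genes. Other forms of that core were not searched, so a window without AGGAAG may still hold them. The windows are chr3:137340828-137341077 on the plus strand for Emcn, chr11:49609429-49609678 on the plus strand for Flt4 and chr2:32646345-32646594 on the plus strand for Eng.
Emcn: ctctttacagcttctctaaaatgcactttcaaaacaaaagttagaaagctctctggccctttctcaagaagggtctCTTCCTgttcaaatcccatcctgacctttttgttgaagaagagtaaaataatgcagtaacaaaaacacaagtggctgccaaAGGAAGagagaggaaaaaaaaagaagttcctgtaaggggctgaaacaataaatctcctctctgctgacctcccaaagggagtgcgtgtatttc
Flt4: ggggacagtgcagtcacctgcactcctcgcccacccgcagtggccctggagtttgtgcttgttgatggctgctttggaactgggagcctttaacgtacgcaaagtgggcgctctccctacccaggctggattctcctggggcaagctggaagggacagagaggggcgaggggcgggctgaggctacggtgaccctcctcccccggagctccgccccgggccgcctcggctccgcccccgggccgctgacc
Eng: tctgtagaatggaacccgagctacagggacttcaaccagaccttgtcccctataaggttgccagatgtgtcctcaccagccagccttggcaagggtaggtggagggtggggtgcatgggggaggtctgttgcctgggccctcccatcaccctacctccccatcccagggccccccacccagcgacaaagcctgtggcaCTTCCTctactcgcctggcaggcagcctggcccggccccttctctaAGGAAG

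The Emcn window held 2 matches to AGGAAG, with first bases at -174 and -93 from the start site, and the Eng window held 2, at -52 and -6. Of the other windows, that of Stab2 held 1, and those of Flt4, Kdr and Tek held 0, while 29.5% of all 32851 windows held at least 1. GGGCGG, the GC box, was found on either strand 3 times in the Flt4 window and 2 times in that of Kdr, and in none of the other 4, against 32.7% of all windows. CANNTG, the E-box, was found in 5 of the 6 windows and in 66.2% of all. The G and C content of the windows was 40.8% for Emcn, 62.4% for Eng and 68.4% for Flt4, against a median of 52.4%. These matches are letters in a window; no binding was measured.

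**Figure D1:**
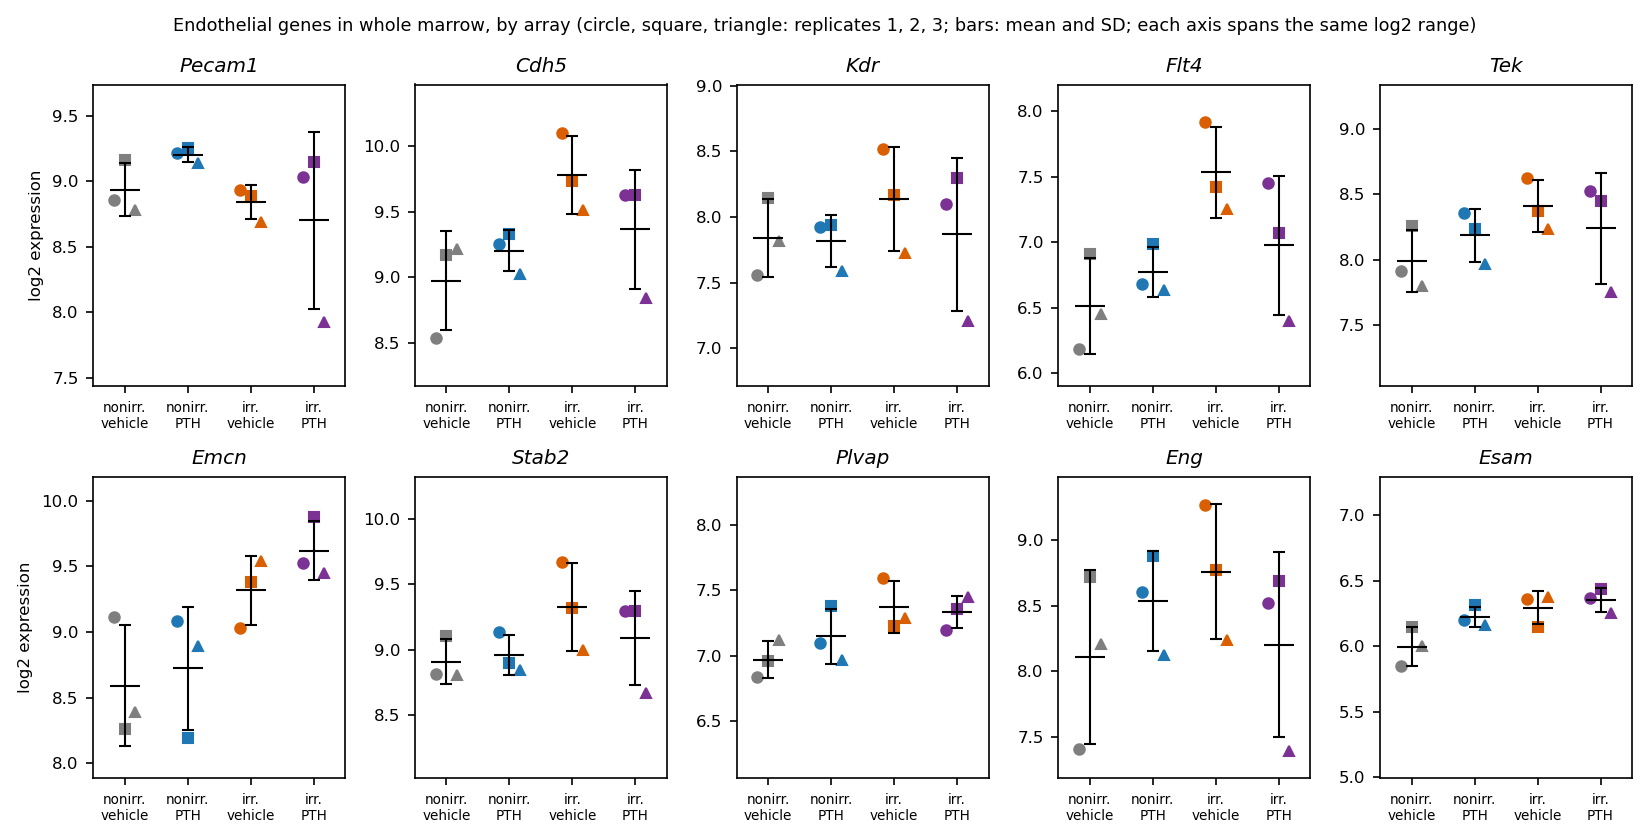
Each panel plots the log2 expression of 1 gene on the 12 arrays, with circles, squares and triangles for replicates 1, 2 and 3 of each group and bars for the mean and SD (n = 3). Every panel spans the same log2 range. The Emcn points of irradiated PTH marrow, 9.45 to 9.88, lie above those of nonirradiated PTH marrow, and irradiated PTH replicate 3 is the lowest array of its group for 9 of the 10 genes.

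Emcn encodes endomucin, a sialomucin of the endothelial surface that is abundant on marrow sinusoids and on the bone vessels known as type H. In nonirradiated vehicle marrow its 3 arrays read 9.12, 8.26 and 8.39, and in nonirradiated PTH marrow 9.08, 8.19 and 8.90. In irradiated vehicle marrow they read 9.03, 9.38 and 9.54, and in irradiated PTH marrow 9.53, 9.88 and 9.45. The irradiated PTH arrays were all above the nonirradiated PTH arrays, whereas in vehicle mice nonirradiated replicate 1 overlapped the irradiated arrays. The group means were 8.59 ± 0.46 and 8.72 ± 0.47 in nonirradiated vehicle and PTH mice, against 9.32 ± 0.26 and 9.62 ± 0.23 in irradiated vehicle and PTH mice (SD, n = 3 each).

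Averaged over both treatments, Emcn rose with irradiation by a log2 of 0.81 (SE 0.19, 95% confidence interval 0.40 to 1.22), a 1.76-fold difference, with an adjusted p of 0.0230 by limma. Of all genes, 6.10% passed the same threshold of an adjusted p under 0.05 in that comparison, 2.51% higher and 3.59% lower in irradiated marrow. The irradiation difference of Emcn was 0.73 (SE 0.27, adjusted p = 0.233 by limma) in vehicle mice and 0.90 (SE 0.27, adjusted p = 0.122 by limma) in PTH mice, so neither passed on its own.

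The call on Emcn was kept in 7 of the 12 fits that left out 1 array. It was lost without nonirradiated vehicle replicate 2 (log2 difference 0.73) or replicate 3 (0.76), without irradiated vehicle replicate 2 (0.80) or replicate 3 (0.76), and without irradiated PTH replicate 2 (0.75), with limma's adjusted p between 0.0538 and 0.0655. It was also lost without both narrow-range arrays (0.80, adjusted p = 0.0531 by limma), and over all 21 alternatives the adjusted p ran from 0.00203 to 0.0655. With sex as a term the difference was 0.77 (adjusted p = 0.0417 by limma). Among male-pattern arrays alone, irradiated vehicle exceeded nonirradiated vehicle marrow by 0.87, and among female-pattern arrays the 1 irradiated PTH array exceeded the mean of the nonirradiated PTH arrays by 0.81.

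Of the other junction and adhesion genes, Cdh5 and Esam had higher means in irradiated marrow of both treatments and Pecam1 lower ones, none past the threshold. Cdh5 encodes VE-cadherin, the cadherin of endothelial adherens junctions. Its arrays read 8.54, 9.17 and 9.22 in nonirradiated vehicle marrow and 10.10, 9.74 and 9.51 in irradiated vehicle marrow. In nonirradiated PTH marrow they read 9.26, 9.33 and 9.03, and in irradiated PTH marrow 9.63, 9.63 and 8.84. The vehicle groups did not overlap, and in PTH mice irradiated replicate 3 was the lowest array of both groups.

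In vehicle mice Cdh5 differed by a log2 of 0.81 (SE 0.25, 95% confidence interval 0.27 to 1.34, adjusted p = 0.136 by limma), which did not pass the threshold. In PTH mice the difference was 0.16 (SE 0.25), and averaged over treatments it was 0.49 (SE 0.17, adjusted p = 0.149 by limma). Without irradiated PTH replicate 3, which is not part of the vehicle comparison but enters the shared estimate of spread, the vehicle difference stayed at 0.81 and passed (adjusted p = 0.0430 by limma). Without that array the difference in PTH mice was 0.43 and the averaged difference 0.62 (adjusted p = 0.0252 by limma). The other fits without 1 array did not call Cdh5, with adjusted p by limma up to 0.379 in vehicle mice and 0.282 averaged.

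Pecam1 encodes CD31, an adhesion molecule of endothelial junctions that platelets, monocytes and progenitor cells also carry. It was the 1 gene of the 10 with a lower mean in irradiated marrow of both treatments, the difference being -0.095 (SE 0.26) in vehicle mice and -0.50 (SE 0.26, adjusted p = 0.436 by limma) in PTH mice. Its irradiated PTH arrays read 9.04, 9.14 and 7.92. The difference was -0.11 without replicate 3, the low array.

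Esam encodes an adhesion molecule of endothelial tight junctions that is also found on platelets and on stem cells. It lay between 5.85 and 6.15 in nonirradiated vehicle marrow and between 6.15 and 6.37 in irradiated vehicle marrow, a difference of 0.30 (SE 0.12, adjusted p = 0.299 by limma). In PTH mice the difference was 0.13 (SE 0.12). The groups of vehicle mice did not overlap, but their nearest arrays both read 6.15.

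Flt4 and Kdr encode the receptor tyrosine kinases VEGFR3 and VEGFR2, and marrow sinusoids are marked by carrying both. Flt4 arrays read 6.19, 6.91 and 6.45 in nonirradiated vehicle marrow and 7.92, 7.42 and 7.26 in irradiated vehicle marrow. In PTH mice they read 6.68, 6.99 and 6.64 without irradiation and 7.45, 7.07 and 6.40 with it. All 3 irradiated vehicle arrays were above all nonirradiated arrays of either treatment, and irradiated PTH replicate 3 was below the nonirradiated PTH arrays.

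Flt4 had the largest irradiation difference of the 10 genes in vehicle mice, a log2 of 1.01 (SE 0.27, 95% confidence interval 0.43 to 1.60), a 2.02-fold difference that missed the threshold (adjusted p = 0.0844 by limma). It was 0.20 (SE 0.27) in PTH mice and 0.61 (SE 0.19, adjusted p = 0.0934 by limma) averaged over treatments. Leaving out irradiated PTH replicate 3 brought both the vehicle difference (1.01, adjusted p = 0.0227 by limma) and the averaged difference (0.75, adjusted p = 0.0146 by limma) past the threshold. The other fits without 1 array did not call Flt4, with adjusted p by limma up to 0.259 in vehicle mice and 0.196 averaged. The averaged difference also passed with sex as a term (0.72, adjusted p = 0.0193 by limma). Between male-pattern arrays of vehicle mice Flt4 differed by 0.82, and between female-pattern arrays of PTH mice, with 1 irradiated array, by 0.68.

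Kdr showed less. It lay between 7.56 and 8.15 in nonirradiated vehicle marrow and between 7.73 and 8.52 in irradiated vehicle marrow, and the groups overlapped. The difference was 0.30 (SE 0.28, 95% confidence interval -0.31 to 0.90) in vehicle mice and 0.051 (SE 0.28) in PTH mice. The interval in vehicle mice spans 0 and also takes in a difference as large as that of Emcn.

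Tek encodes TIE2, the receptor for angiopoietins, which stem cells also carry, and Eng encodes endoglin, a coreceptor for ligands of the TGF-beta and BMP family. The irradiation difference of Tek was 0.42 (SE 0.21, adjusted p = 0.424 by limma) in vehicle mice and 0.054 (SE 0.21) in PTH mice. Eng varied widely within groups: its arrays ran from 7.40 to 8.72 in nonirradiated vehicle marrow and from 7.40 to 8.69 in irradiated PTH marrow, with SDs of 0.66 and 0.70 (n = 3 each). Its irradiation difference was 0.65 (SE 0.40, adjusted p = 0.548 by limma) in vehicle mice and -0.33 (SE 0.40) in PTH mice. The second of these was 0.071 without irradiated PTH replicate 3, 0.082 with sex as a term and 0.047 with array weights, so its sign was not settled.

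Stab2 encodes stabilin-2, a scavenger receptor for hyaluronan that marks sinusoidal endothelium, and Plvap encodes the protein of the diaphragms that close fenestrae and caveolae. Stab2 lay between 8.81 and 9.11 in nonirradiated vehicle marrow and between 9.0 and 9.67 in irradiated vehicle marrow, a difference of 0.42 (SE 0.20, adjusted p = 0.410 by limma). Plvap lay between 6.84 and 7.12 and between 7.22 and 7.59 in the same groups, which did not overlap, with a difference of 0.40 (SE 0.15, adjusted p = 0.241 by limma). In PTH mice the differences were 0.13 (SE 0.20) for Stab2 and 0.19 (SE 0.15) for Plvap. Plvap was the only gene of the 10 for which irradiated PTH replicate 3, at 7.45, was the highest array of its group.

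**Figure D2:**
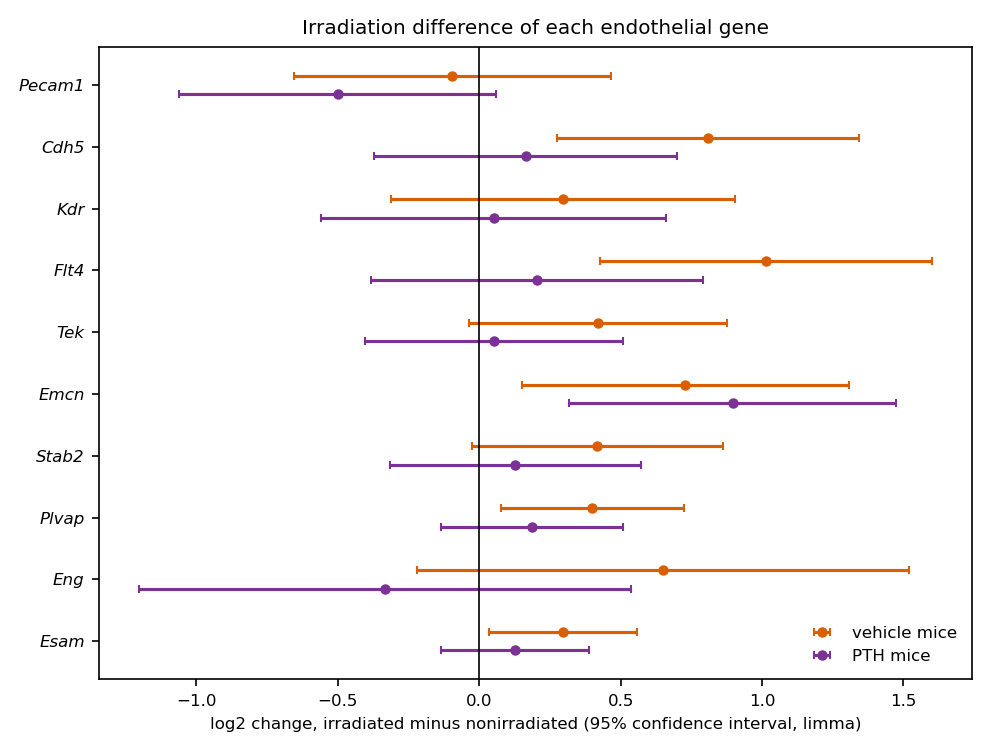
The log2 change with irradiation of each gene is plotted for vehicle mice (orange) and PTH mice (purple), with limma's 95% confidence interval and a line at 0. Emcn is the only gene whose interval lies above 0 in both treatments; the intervals of Cdh5, Flt4, Plvap and Esam lie above 0 in vehicle mice alone.

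Counted together, 9 of the 10 genes had a higher mean after irradiation in vehicle mice, against 9043 of 19938 genes. Their median log2 difference was 0.42, against -0.026 over all genes. A filter on dim genes kept 11963 genes, all 10 among them, and the median over those 11963 was 0.061. No gene of the 10 passed the adjusted threshold in vehicle mice, against 2.22% of all genes. At an unadjusted p under 0.05, 5 of the 10 were higher and 0 lower, where 7.43% of all genes were higher. The irradiated arrays lay wholly above the nonirradiated ones for 4 of the 10 (Cdh5, Flt4, Plvap and Esam), against 8.95% of all genes. Leaving out irradiated PTH replicate 3 brought 2 of the 10 past the adjusted threshold, Flt4 and Cdh5, and raised the share of all genes called to 3.82%.

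In PTH mice 8 of the 10 genes had a higher mean after irradiation, against 10232 of 19938 genes. The median of the 10 was 0.13, against 0.0072 over all genes and -0.058 over those kept by the filter on dim genes. Without irradiated PTH replicate 3 it was 9 of the 10 with a median of 0.32, Flt4 standing at 0.49, Kdr at 0.38, Stab2 at 0.34 and Tek at 0.30. With all arrays none passed the adjusted threshold, against 2.43% of all genes, and 1 (Emcn) was higher at an unadjusted p under 0.05, against 4.70% of all genes. Emcn was also the 1 gene of the 10 whose irradiated arrays lay wholly above the nonirradiated ones, against 8.93% of all genes. Averaged over treatments, 1 of the 10 was called, against 6.10% of all genes. The median was 0.25, against -0.0087 over all genes and 0.0026 over those kept by the filter on dim genes. The 10 genes were measured in the same RNA, so they are not independent of each other.

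The PTH comparisons gave no call, for these genes or for any other. In nonirradiated mice 0 of the 10 and 0% of all genes passed by limma, and 0 of the 10 had an unadjusted p under 0.05, where 213 genes of all were higher and 143 lower at that level. The differences of the 10 genes ran from -0.024 for Kdr to 0.43 for Eng (SE 0.40). Above 0 were 9 of the 10, against 10507 of 19938 genes. The median was 0.21 over the 10, 0.011 over all genes and 0.070 over those kept by the filter on dim genes. With sex as a term, which in these mice rests on the irradiated arrays alone, 7 of the 10 were below 0, among them Flt4 at -0.39 and Eng at -0.20. All nonirradiated PTH arrays had the female pattern, and the part of sex in these differences cannot be told apart from that of PTH.

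In irradiated mice 0 of the 10 and 0% of all genes passed for PTH against vehicle, and 0 of the 10 had an unadjusted p under 0.05 by limma, where 339 genes of all were higher and 420 lower. The log2 difference of Flt4 was -0.56 (SE 0.27, 95% confidence interval -1.14 to 0.031, adjusted p = 0.844 by limma). The differences of Eng and Cdh5 were -0.56 (SE 0.40) and -0.42 (SE 0.25). Below 0 were 8 of the 10, against 9524 of 19938 genes. Emcn and Esam, at 0.30 (SE 0.27) and 0.060 (SE 0.12), were above 0. Without irradiated PTH replicate 3, Pecam1, Kdr and Tek turned to 0.25, 0.062 and 0.074, while Flt4 stood at -0.27 and Cdh5 and Eng at -0.15 each. That left 5 of the 10 below 0, with a median of 0.016 against -0.20 with all arrays. With all arrays the median was 0.010 over all genes and -0.066 over those kept by the filter on dim genes. A fit of the irradiated groups alone that paired same-numbered arrays (a replicate block) called 1 gene of all and 0 of the 10.

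The test of whether irradiation acted differently in PTH and vehicle mice called 0 of the 10 and 0% of all genes by limma, with 392 genes of all higher and 702 lower at an unadjusted p under 0.05 and 0 of the 10 among them. The difference between the irradiation differences was below 0 for 9 of the 10 genes, against 9565 of 19938 genes. Among the 9 it ran from -0.98 (SE 0.56) for Eng and -0.81 (SE 0.38, adjusted p = 0.732 by limma) for Flt4 to -0.17 (SE 0.17) for Esam. For Emcn it was 0.17 (SE 0.38, 95% confidence interval -0.65 to 0.99). With sex as a term Flt4 stood at -0.16 and Eng at -0.36, and without irradiated PTH replicate 3 they stood at -0.52 and -0.58. The median of the 10 was -0.33, and -0.12 without that array. With all arrays the median was 0.014 over all genes and -0.14 over those kept by the filter on dim genes.

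Within groups, most of the 10 genes went up and down together from array to array, and Emcn did not. Irradiated PTH replicate 3 deviated from its group mean by -0.81 for Eng, -0.78 for Pecam1 and -0.66 for Kdr, against -0.17 for Emcn and 0.11 for Plvap. In irradiated vehicle marrow replicate 1, the female-pattern array, was the highest of its group for Pecam1, Cdh5, Kdr, Flt4, Tek, Stab2, Plvap and Eng, and the lowest for Emcn. In nonirradiated vehicle marrow replicate 1 was the lowest for Eng (-0.71 from the group mean) and the highest for Emcn (0.53).

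**Figure D3:**
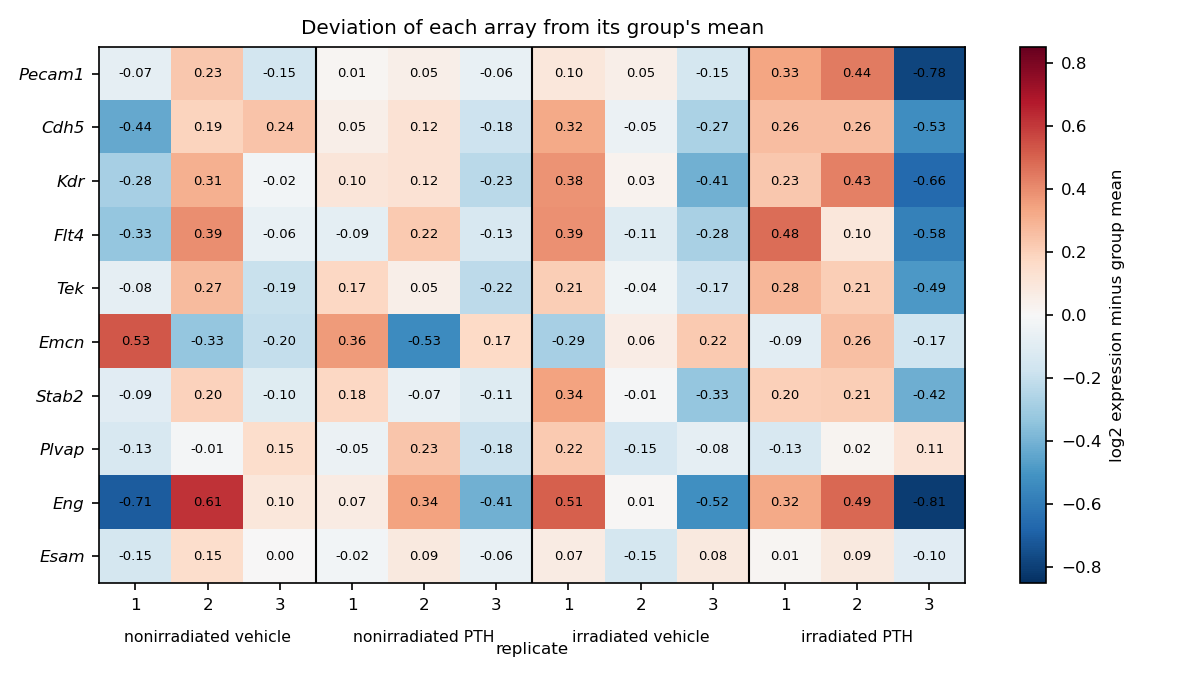
The colour and number of each cell give the log2 expression of a gene on 1 array minus the mean of that array's group, with genes in rows and the 12 arrays in columns (red above, blue below the group mean). Irradiated PTH replicate 3 is blue for 9 of the 10 genes, and Emcn has the opposite colour to Eng on most arrays of the nonirradiated vehicle and irradiated vehicle groups.

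As a description over the 12 arrays, the 45 pairs of these genes had a median Pearson r of 0.60, from -0.32 to 0.94. The closest pairs were Cdh5 with Flt4 (0.94) and Tek with Stab2 (0.93), followed by Kdr with Stab2 and Kdr with Eng (0.91 each). Emcn had an r of -0.32 with Pecam1, -0.19 with Eng and -0.0074 with Kdr, and of 0.24 to 0.41 with the other 6 genes. Without irradiated PTH replicate 3 the median of the pairs was 0.70, and for deviations from the group means it was 0.66. All pairs share the same libraries and the same normalization.

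Outside the 10 genes, 8 followed their mean profile most closely over the 12 arrays. They were Nrbp2 (r = 0.97), Nid1 (0.97), Adgra3 (0.96), Ece1 (0.96), Hyou1 (0.96), Ptprb (0.95), Robo4 (0.95) and Lrp8 (0.95). Among them, Nid1 encodes a basement membrane protein, Ece1 the enzyme that makes endothelin, Ptprb the endothelial phosphatase VE-PTP and Robo4 a guidance receptor of endothelial cells. Nrbp2, Adgra3, Hyou1 and Lrp8 are not described here. The 8 were picked from all genes by these same arrays, so their likeness is a description and no test. Over the 11 arrays other than irradiated PTH replicate 3 their r ran from 0.94 to 0.96.

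Other genes of endothelial cells, from a list of 35, showed both larger and smaller differences than these 10. Averaged over treatments, 6 rose and 1 fell with irradiation past the threshold, with a median of 0.19. In that comparison 2.51% of all genes rose and 3.59% fell past the threshold. For the lists below, rose and fell also mean passing it, and the same shares of all genes apply. Podxl, which encodes the sialomucin podocalyxin, rose by a log2 of 1.90 (SE 0.24, adjusted p = 0.000566 by limma). Cav1, the main protein of caveolae, rose by 1.28 (SE 0.12), Mcam, an adhesion molecule of endothelial cells and pericytes, by 0.73 (SE 0.11), and Mmrn2, an extracellular partner of the C-type lectin CLEC14A, by 0.53 (SE 0.10). These 4 genes were called whichever of the 12 arrays was left out.

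Podxl read 6.46 ± 0.11 in nonirradiated vehicle marrow, 6.42 ± 0.17 in nonirradiated PTH marrow, 8.78 ± 0.44 in irradiated vehicle marrow and 7.90 ± 0.87 in irradiated PTH marrow (SD, n = 3 each). The other 2 that rose, Ramp2 at 0.62 and Ecscr at 0.46, and the 1 that fell, Myct1 at -0.41 (SE 0.11, adjusted p = 0.0466 by limma), were named after their values were seen. Ramp2 was called whichever array was left out, but Ecscr was not called without replicate 2 of nonirradiated PTH marrow, replicate 2 of irradiated vehicle marrow or replicate 1 of irradiated PTH marrow (adjusted p of 0.0513 to 0.0598 by limma). Myct1 was called only without nonirradiated vehicle replicate 3 or irradiated PTH replicate 2; without any other array its adjusted p by limma was 0.0736 to 0.112. Values that did not pass included 0.34 for Flt1, the receptor VEGFR1, 0.20 for the orphan receptor Tie1, 0.37 for the sinusoidal scavenger receptor Stab1 and 0.13 for Vcam1, an adhesion molecule for blood cells.

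Of 11 genes listed as VEGF, angiopoietin and angiopoietin-like ligands and coreceptors, 1 rose and 1 fell, against 2.51% and 3.59% of all genes. Angpt1, the ligand that activates TIE2, had a log2 difference of -0.71 and so fell (SE 0.11, adjusted p = 0.00207 by limma), from 8.76 ± 0.23 to 7.94 ± 0.24 in vehicle mice and from 8.61 ± 0.15 to 8.01 ± 0.10 in PTH mice (SD, n = 3 each). The 1 that rose was Angptl4, an angiopoietin-like inhibitor of lipoprotein lipase made by fat cells among others (1.28, SE 0.24, adjusted p = 0.00651 by limma). With all arrays, no VEGF, angiopoietin or coreceptor gene of the list was called higher. Angpt1 and Angptl4 were called whichever of the 12 arrays was left out. Vegfa, the main ligand of VEGFR2, and Vegfd had averaged differences of 0.28 (SE 0.11) and 0.35 (SE 0.13), and Angpt2, an antagonist of Angpt1 at TIE2, 0.25 (SE 0.10, adjusted p = 0.199 by limma).

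Among 17 genes of Notch, ephrin, BMP9 and sphingosine-1-phosphate signalling in vessels, 0 rose and 1 fell, against 2.51% and 3.59% of all genes, with a median of 0.025. With all arrays, no Notch, ephrin or BMP9 gene of the list was called. The 1 that fell was S1pr1, a sphingosine-1-phosphate receptor of endothelial cells and lymphocytes, by 0.53 (SE 0.13, adjusted p = 0.0361 by limma). Its call held in only 3 of the 12 fits without 1 array, those without nonirradiated vehicle replicate 3, nonirradiated PTH replicate 2 or irradiated PTH replicate 2. In the other fits its adjusted p by limma was 0.0576 to 0.100, and with sex as a term it was 0.0611. Of 8 arterial genes measured, 1 rose, the gap junction gene Gja5 (0.53, SE 0.11, adjusted p = 0.0144 by limma), with a median of 0.019 over the 8. Of 9 further adhesion and junction genes, 1 rose, Tjp1, the tight junction scaffold ZO-1 (0.90, SE 0.10, adjusted p = 0.000160 by limma), with a median of -0.020. Without irradiated PTH replicate 3, 3 of these 9 rose.

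**Figure D4:**
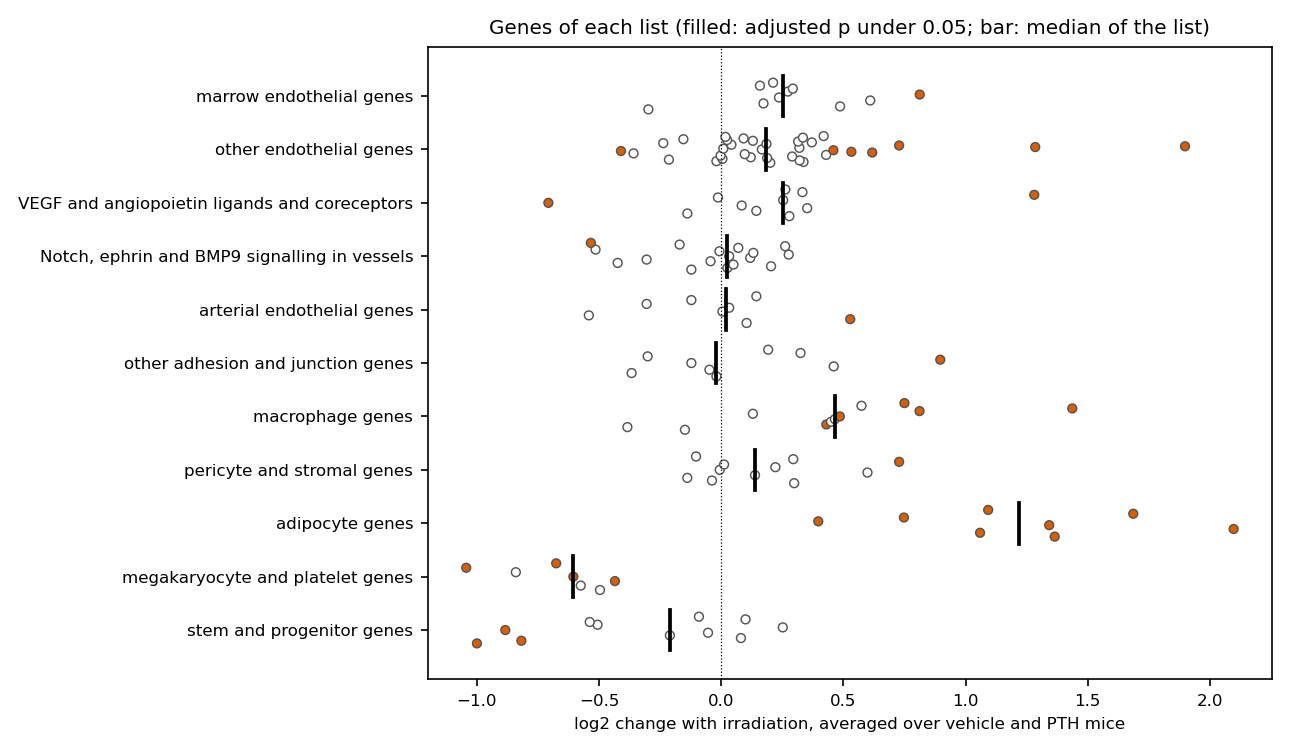
Each point is 1 gene's log2 change with irradiation averaged over vehicle and PTH mice, in rows by gene list, filled where limma's adjusted p was under 0.05; the bar is the median of the list, and the 10 are left out of the other rows. Of the 10 marrow endothelial genes 1 is filled (Emcn, 0.81), of the 8 adipocyte genes all 8 are filled and above 0, and of the 7 megakaryocyte and platelet genes all lie below 0.

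Several of the 10 genes are also carried by blood cells, so the lists of those cells were read beside them. Of 7 megakaryocyte and platelet genes measured, 0 rose and 4 fell, against 2.51% and 3.59% of all genes, with a median of -0.61. Without irradiated vehicle replicate 3, 2 fell. Of 11 stem and progenitor genes 0 rose and 3 fell, with a median of -0.21, among them Meis1, a transcription factor of stem cells, with a log2 difference of -0.82 (SE 0.14, adjusted p = 0.00428 by limma). The count was 2 to 5 over the fits without 1 array, with 5 without irradiated PTH replicate 2. Slamf1, one of the 3, was not called in 6 of these 12 fits nor with sex as a term (adjusted p = 0.0553 by limma). On the mean of each list relative to all arrays, megakaryocyte genes lay between 0.042 and 0.68 on nonirradiated and between -0.54 and 0.035 on irradiated arrays, while the mean of the 10 endothelial genes lay between -0.42 and 0.028 and between -0.39 and 0.47. No gene of these 2 lists was called higher, though 3 of the 11 stem and progenitor genes had differences above 0. The part of these 2 lists in the values of the 10 genes, Emcn and Eng among them, was not tested.

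Most macrophage genes went the other way: 5 of 11 rose and 0 fell (3 without nonirradiated PTH replicate 2), with a median of 0.47. Cd5l (1.44, SE 0.27) and Marco (0.81, SE 0.11) led them. Above 0 were 9 of the 11, while the broad macrophage genes Csf1r (-0.38, SE 0.22) and Adgre1 (-0.15, SE 0.18) were below 0. The mean of the macrophage list lay between -0.49 and -0.068 on nonirradiated arrays and between -0.20 and 0.47 on irradiated arrays. Irradiated PTH replicate 3 was the lowest of the irradiated arrays, as it was for the 10 endothelial genes. Of 11 pericyte and stromal genes 1 rose, Mcam, which is also in the endothelial list, with a median of 0.14. All 8 adipocyte genes rose (7 to 8 over the fits without 1 array), with a median of 1.22, and Angptl4 and Cav1 are also expressed by adipocytes. Of 7 B-lineage genes 6 fell and 0 rose, with a median of -2.24. Of 7 erythroid genes and of 8 neutrophil genes, 1 each fell and 0 rose. The neutrophil gene, Ly6g, was not called without replicate 2 of nonirradiated PTH marrow or without replicate 1 or 3 of irradiated vehicle marrow (adjusted p of 0.0508 to 0.0594 by limma). The part of these shifts in the endothelial values was not tested.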

How the data were processed

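Per the labels' protocols, RNA of the Trizol flush was purified on Qiagen columns, and total RNA was amplified and biotin-labelled with the NuGEN Applause kit. The authors' deposited table is on a log2 scale, as judged by its values, and the submitters' processing notes name affy, RMA and limma without versions or roles. Its genome build was not stated in them.

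Of 35556 rows, 21789 had 1 gene symbol, which gave 19938 genes after keeping each gene's row of highest mean. Rows with several symbols (1621) or not listed (12146) were left out. Symbols were checked against RefSeq, where 91 rows had no match. A model of 4 group means was fitted to the 12 arrays (limma 3.58.1, R 4.3.3), with empirical Bayes moderation and 8 residual degrees of freedom. There were 6 contrasts, and Benjamini-Hochberg adjustment was over all genes in each. The number of arrays limits precision: the median SE of a difference between 2 groups was 0.166. The fit was tested on simulated data.

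The genes and lists were chosen with earlier results of these data known. All 10 genes are named in every contrast, and of each other list up to 4 genes with the smallest p in the averaged contrast, with the 8 genes of the most similar profile; further genes named are examples. Alternatives were the variance model, array weights, scaling, a filter on dim genes that all 10 passed, row choice, a sex term, the replicate block, fewer groups, and leaving out arrays. No label says that replicate numbers pair arrays. In the irradiated groups, the deviations of same-numbered arrays from their group means correlated across genes at 0.447, 0.144 and 0.570. These were treated as paired in a fit added after seeing the data. Other pairs of groups did not all exceed 0.1 and ran from -0.65 to 0.60, so some were as high. Arrays of different numbers were not compared, and replicate 1 of both irradiated groups had the female pattern.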

Additional observations from a re-analysis of the deposited data

How the results depend on the processing

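The counts of calls moved with the arrays and terms in the fit, and the cause was not tested. For irradiation in vehicle mice, where 0 of the 10 genes and 442 of all were called, array weights gave 3 and 1149, the fit without both narrow-range arrays gave 1 and 510, and leaving out 1 array gave 0 to 2 of the 10 and 211 to 762 of all. In PTH mice (0 and 485), array weights gave 1 and 1148, sex as a term 200 of all, the compared groups alone 232, and leaving out 1 array 225 to 531. Averaged (1 and 1216), array weights gave 3 and 2517, sex as a term 2 and 1084, the fit without both narrow-range arrays 2 and 1314, and leaving out 1 array 0 to 3 and 822 to 1393. For PTH in nonirradiated mice the compared groups alone called 4 of all genes.

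With the replicate block over all groups, 0, 0 and 1 of the 10 and 500, 672 and 1407 of all genes were called for irradiation in vehicle mice, in PTH mice and averaged, so it changed no call on the 10. In the irradiated groups alone the replicate block called 1 gene of all for PTH.

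Differences that were not called and crossed 0 are given as log2 values. For irradiation in PTH mice, Eng was 0.047 under array weights, 0.082 under a sex term and 0.071 without both narrow-range arrays. For PTH in nonirradiated mice, Stab2 was -0.0019 with quantile normalization repeated, and with sex as a term Pecam1 was -0.056, Cdh5 -0.21, Flt4 -0.39, Tek -0.18, Stab2 -0.36 and Eng -0.20. For PTH in irradiated mice, array weights gave Pecam1 0.14, Tek 0.046 and Plvap 0.0056, repeated quantile normalization gave Plvap 0.030, and the fit without both narrow-range arrays gave Pecam1 0.25, Kdr 0.062 and Tek 0.074. For the interaction, array weights gave Kdr 0.12, Emcn -0.073 and Esam 0.045, sex as a term gave Kdr 0.22, Tek 0.0056, Emcn -0.11 and Stab2 0.12, and the fit without both narrow-range arrays gave Pecam1 0.060 and Kdr 0.098.

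Leaving out 1 array moved these ranges across 0. For irradiation they were -0.17 to 0.020 for Pecam1 in vehicle mice, -0.018 to 0.36 for Eng averaged, and in PTH mice -0.16 to 0.38 for Kdr, -0.034 to 0.49 for Flt4, -0.088 to 0.30 for Tek and -0.58 to 0.071 for Eng. For PTH in nonirradiated mice they were -0.17 to 0.13 for Kdr, -0.047 to 0.40 for Emcn and -0.037 to 0.15 for Stab2. For PTH in irradiated mice they were -0.36 to 0.25 for Pecam1, -0.48 to 0.062 for Kdr, -0.31 to 0.074 for Tek, -0.11 to 0.076 for Plvap and -0.014 to 0.11 for Esam. For the interaction they were -0.46 to 0.087 for Kdr and -0.098 to 0.35 for Emcn.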
